A study of Rattus norvegicus with 6 samples.

Results

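The Serpin genes encode a family of structurally related proteins, most of them inhibitors of proteases. Members were the protein-coding entries of the deposited table whose symbol starts with Serpin, a clade letter from a to i and a digit, with Serpina3n and Serping1 left out. This rule gave 40 of the 37991 genes. It read no measured value. Entries without a Serpin symbol, such as the angiotensinogen gene Agt, were outside it. Total RNA was sequenced from SD rat cells in culture, with 3 libraries of oligodendrocyte precursors grown in Raff medium (the control, before differentiation) and 3 of oligodendrocytes differentiated from them by changing growth factors. Titles number the replicates 1, 2 and 5 in each group and, for numbers 1 and 2, name day 0 for precursors and day 3 for differentiated cells. Those of number 5 name no day. Age, sex, genotype and the number of animals were not given in the sources used here, and neither group is stated to carry a transgene or drug. Nothing states that replicates were separate cultures, so the spread that p-values rest on may be technical.

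An inhibitory serpin offers a protease an exposed loop as bait and, once cut, changes shape and traps the enzyme in a covalent complex. Some members have lost this activity and act as chaperones, hormone carriers or signalling proteins. In nervous tissue the family is known for control of thrombin and of the plasminogen activators, proteases that act on matrix and on cell surface receptors. Clade B members lack a classical signal peptide and mostly act inside cells, whereas the other clades are mainly secreted or, for Serpinh1, held in the endoplasmic reticulum (ER).

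Much of the family was not detected in these cultures. Of the 40 members, 20 had 0 reads in all 6 libraries, 6 had some reads but were below the low-count filter, and 14 were tested. Between 11 and 18 members had at least 1 read in a library. Transcripts of Serpine2 and Serpinh1 together made up 70.8% to 86.5% of the TPM summed over the 40 members. Serpina3n, Serping1 and Agt are not in that sum. TPM is the deposited level, scaled for transcript length and library depth. In the fit of 3 against 3 libraries (edgeR's quasi-likelihood test, called at a Benjamini-Hochberg adjusted p under 0.05 over all genes), 1 of the 14 members, Serpinb7, was lower in differentiated cells. Serpinb7 passed the low-count filter only through the precursor libraries, so only a lower call was likely for it. The background was 3.21% of all 17797 tested genes called lower. None of the 14 was called higher, against a background of 5.65%. At an unadjusted p under 0.05, 5 members were lower and 0 higher, and 23.1% of all tested genes were under that level in either direction.

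With the replicate number as a block, a fit that compares same-numbered libraries, 5 of the 14 were lower, among them Serpinh1, Serpinb6, Serpinb9 and Serpinb7. In that fit 15.7% of all genes were called lower and 14.9% higher, and 0 members were higher. Without both replicate 1 libraries, 0 of 13 members tested were called in either direction, while 8.11% of genes were called lower and 8.48% higher. At an unadjusted p under 0.05, that last fit had 6 members lower and 0 higher. The share of all genes under that level in that fit was not taken, so this count has no background. DESeq2 on all 6 libraries gave an adjusted p to 16 members and 19601 genes. It called 3 of the 16 lower (6.11% of the genes) and 0 higher (7.44%). On the TPM scale limma called 2 of the 14 lower with a pseudocount of 1 (5.62% of genes, and 2.74% higher) and 4 with a pseudocount of 0.1 (6.12%, and 2.86% higher). It called 0 members higher with either. The median log2 fold change of the 14 members was -0.25, and -0.04 over all tested genes. Lower in all 3 same-numbered pairs were 8 members, among them Serpinb2 and Serpinb7, and 32.0% of all tested genes. Higher in all pairs were 0 members and 29.1% of all tested genes. The groups did not overlap in CPM (read counts scaled to library size, with TMM factors) for 4 of the 14, each lower in differentiated cells, among them Serpinb2, Serpinb7 and Serpinb8. Over all tested genes, 13.8% were lower without overlap and 16.5% higher without overlap. Serpinb2 and Serpinb7 passed the low-count filter only through the precursor libraries. That nearly fixes both lower without overlap and lower in all pairs for them.

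The labels were checked on genes of the lineage. Mog rose from 1.72 to 74.4 CPM (edgeR adjusted p = 3.37e-05), Mbp from 535 to 8975 CPM (0.00166), and the division marker Mki67 fell from 95.4 to 41.7 CPM (0.00886). The precursor mean of Mbp hides a spread, with 888 CPM in precursor 1 against 361 and 355 CPM in precursors 2 and 5. Mog was closer, at 1.95 CPM in precursor 1 against 1.70 and 1.51 CPM. Levels of Pdgfra, the precursor receptor, averaged 427 CPM before and 365 CPM after differentiation, which did not pass (edgeR adjusted p = 0.45). Total reads ran from 55522101 to 79898629 per library, and 1 CPM stood for 54.9 to 72.0 reads. Both replicate 1 libraries lay apart from the others. Their summed microglia markers were at 869 CPM (precursor) and 620 CPM (differentiated), against 335 to 349 CPM in precursors 2 and 5 and 322 to 331 CPM in differentiated 2 and 5. Their summed fibroblast and pericyte markers were at 396 and 244 CPM, against 160 to 229 CPM in the other precursors and 77.6 to 109 CPM in the other differentiated libraries. Of these markers only Rgs5 (pericytes) had 0 reads throughout. Other marker sums of replicate 1 also differed from the mean of replicates 2 and 5 of the same group. Endothelial markers stood at 2.32 times that mean in precursor 1 and 1.80 times in differentiated 1. Oligodendrocyte markers stood at 1.58 and 0.85 times, and precursor markers at 0.62 and 0.76 times. Precursor 1 thus also differed from the other precursors in markers of the lineage itself. Fewer cells of a type and less RNA per cell cannot be told apart in such bulk samples.

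**Figure D1:**
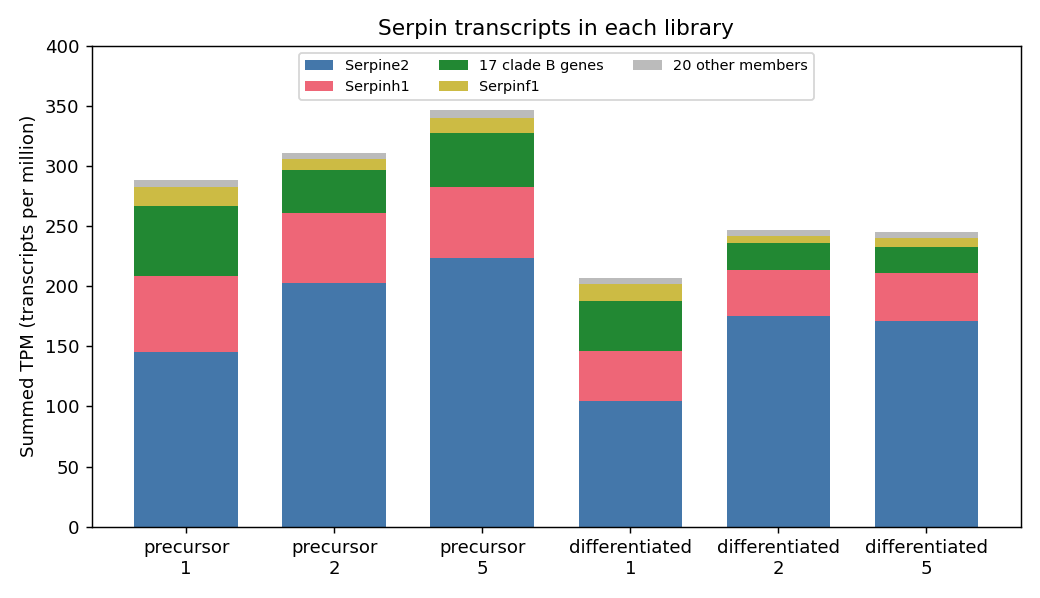
Stacked bars give the summed TPM of the 40 members in each library (y axis), divided into Serpine2, Serpinh1, the 17 clade B genes, Serpinf1 and the 20 other members. The family total lies between 288 and 347 TPM in precursors and between 207 and 247 TPM in differentiated cells, and Serpine2 is the largest share everywhere.

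Summed over the 40 members, TPM was 288, 311 and 347 in precursors 1, 2 and 5 and 207, 247 and 246 in differentiated 1, 2 and 5. The ranges did not overlap. On the CPM scale the same sums were 580, 544 and 502 in precursors and 473, 500.1 and 464 in differentiated cells, so the gap between the groups was far narrower. TPM moved the whole table toward lower values in differentiated cells. The median log2 fold change of all tested genes was -0.17 on log2(TPM + 1) and -0.19 with library size alone. Without Serpine2 the family summed to 109 to 143 TPM in precursors and 72.3 to 103 TPM in differentiated cells.

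The 14 tested members spanned a wide range of TPM. Serpine2 was above Serpinh1, and Serpinh1 above Serpinb6, in all 6 libraries without overlap of their ranges (104 to 223, 39.0 to 63.7 and 10.2 to 24.3 TPM). Serpinb6, Serpinb1a, Serpinf1 and Serpinb9 followed with ranges that overlapped between neighbours, and so did those of Serpinb9 and Serpini1. Serpini1 was at 2.76 to 5.16 TPM. Serpina11, Serpinb2, Serpinb8, Serpinf2, Serpinb7 and Serpina5 stayed at or below 0.702 TPM in every library, and their order was not separated by their spread.

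Promoter sequences were read from RefSeq for GRCr8, which held an entry for 33 of the 40 members, 12 of them tested. The 4 shown are those of the called member Serpinb7, of Serpinb2, the next family member along the chromosome and also lower without overlap, and of the 2 most abundant members, so that low and abundant genes can be compared. Each runs 5′ to 3′ from 250 bases before to 50 after the gene's start: Serpinb7 at chr13:23910056-23910355, plus strand; Serpinb2 at chr13:24055771-24056070, plus strand; Serpinh1 at chr1:163062927-163063226, minus strand; and Serpine2 at chr9:88637153-88637452, minus strand. Capitals mark matches on either strand to any of 4 motifs. The AP-1 site was searched as TGAGTCA. The core of heat shock elements was searched as GAANNTTC. The GC box was searched as GGGCGG, and the TATA box as TATAAA.
Serpinb7: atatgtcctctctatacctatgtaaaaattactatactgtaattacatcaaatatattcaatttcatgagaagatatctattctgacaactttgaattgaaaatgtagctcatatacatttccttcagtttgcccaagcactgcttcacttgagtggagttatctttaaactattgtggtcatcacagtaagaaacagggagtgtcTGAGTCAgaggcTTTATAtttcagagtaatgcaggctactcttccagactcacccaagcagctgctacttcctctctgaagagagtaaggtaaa
Serpinb2: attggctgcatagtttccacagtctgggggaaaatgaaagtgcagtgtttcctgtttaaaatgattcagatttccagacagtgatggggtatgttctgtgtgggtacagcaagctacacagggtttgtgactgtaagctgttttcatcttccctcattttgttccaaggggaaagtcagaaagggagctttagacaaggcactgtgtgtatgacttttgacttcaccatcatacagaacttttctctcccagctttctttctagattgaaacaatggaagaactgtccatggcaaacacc
Serpinh1: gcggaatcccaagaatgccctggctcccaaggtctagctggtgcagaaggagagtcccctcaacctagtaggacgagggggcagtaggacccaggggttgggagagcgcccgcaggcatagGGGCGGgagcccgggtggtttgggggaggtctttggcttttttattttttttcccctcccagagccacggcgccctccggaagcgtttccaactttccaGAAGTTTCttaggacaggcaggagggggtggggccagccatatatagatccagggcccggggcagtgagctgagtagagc
Serpine2: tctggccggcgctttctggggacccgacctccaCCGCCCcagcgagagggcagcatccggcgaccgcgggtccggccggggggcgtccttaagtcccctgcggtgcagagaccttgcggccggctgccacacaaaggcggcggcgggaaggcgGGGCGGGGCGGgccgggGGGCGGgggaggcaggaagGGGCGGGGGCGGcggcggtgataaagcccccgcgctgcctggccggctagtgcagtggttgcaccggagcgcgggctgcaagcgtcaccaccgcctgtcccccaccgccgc

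The Serpinb7 sequence had 36.3% G and C, with TGAGTCA 44 bases and TATAAA (on the other strand) 32 bases before the start. Serpinb2 had 42.7% G and C and none of the 4 motifs. Serpinh1, a gene known to respond to heat shock, had 60.7% G and C, GAANNTTC 30 bases before the start and GGGCGG 129 bases before it. Serpine2 had 77% G and C and 6 matches to GGGCGG, a pair of which overlap. The median G and C content over all promoters was 51.7%. Of all 33469 promoters of this length, TGAGTCA was in 4.63%, GAANNTTC in 8.59%, GGGCGG in 33.1% and TATAAA in 14.2%. Among the 12 tested members with an entry they were in 1, 1, 4 and 2. A match describes these letters and shows no binding.

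The inhibitors of thrombin and of plasminogen activators come first. Serpine2 (29366), also known as protease nexin-1 or glia-derived nexin, inhibits thrombin, urokinase and tissue plasminogen activator. It had 308, 365 and 335 CPM in precursors 1, 2 and 5 and 256, 361 and 331 CPM in differentiated 1, 2 and 5. The groups overlapped, replicate 1 was the lowest library of each, and replicates 2 and 5 were nearly level between the groups. Its log2 fold change was -0.09 (SE 0.15, edgeR adjusted p = 0.786, 0.336 with the replicate block). The gene was lower in 3 of 3 same-numbered pairs, as were 32.0% of all tested genes, and its fold change was 0.05 without differentiated 1.

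Serpini1 (116459), neuroserpin, an inhibitor of tissue plasminogen activator made mainly by neurons, had the highest positive fold change of the members with reads in every library. It measured 8.31, 9.50 and 10.9 CPM in precursors and 14.9, 13 and 10.9 CPM in differentiated cells. The ranges met at the replicate 5 libraries, which were level. The log2 fold change of 0.43 (SE 0.19) did not pass (edgeR adjusted p = 0.227, 0.115 with the block). Summed neuron markers (9 genes, 8 tested, none at 0) were at 31.0 to 58.6 CPM in precursors and 27.3 to 36.4 CPM in differentiated cells, with 0 called higher, 1 called lower, and 0 higher and 3 lower at an unadjusted p under 0.05. Their part in the Serpini1 value was not tested.

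**Figure D2:**
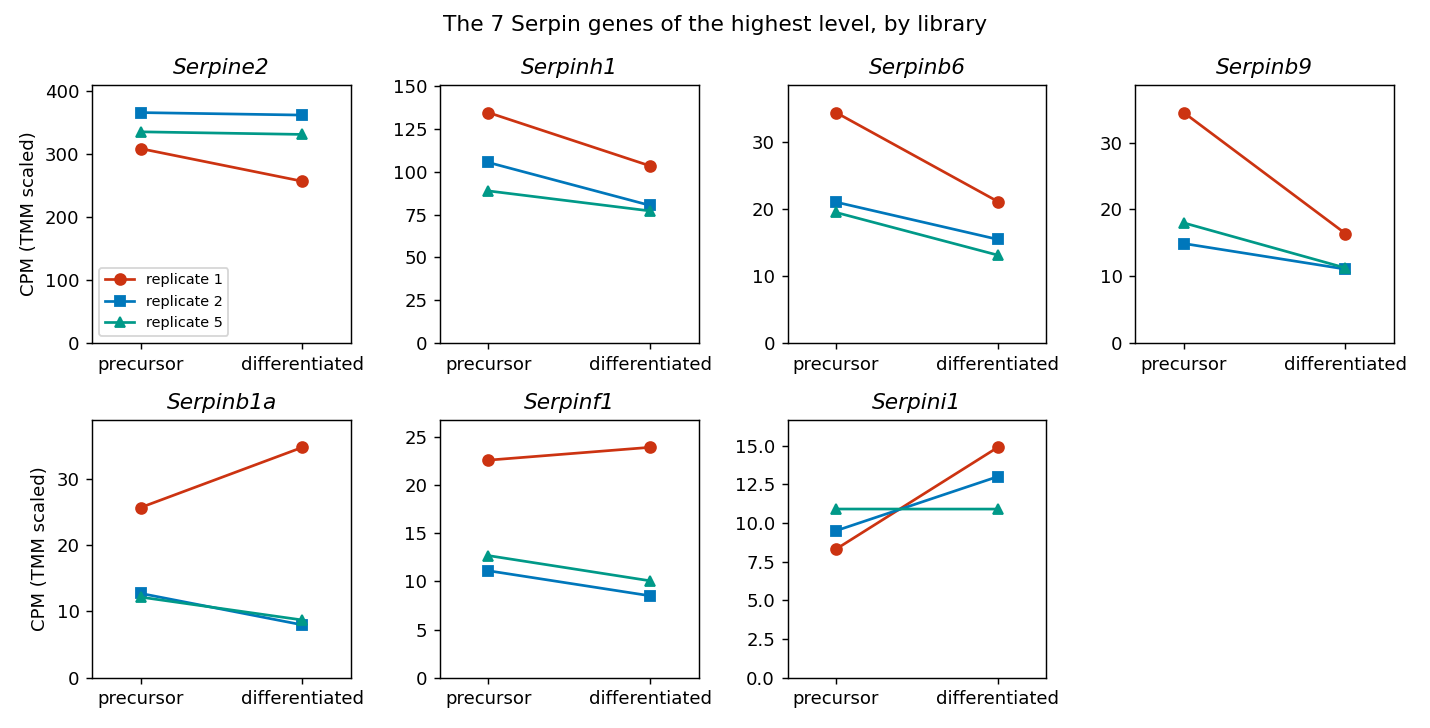
Points give CPM on a linear axis from 0 for the 7 members of the highest level, in precursor and differentiated libraries, with lines joining libraries of the same replicate number. Serpinh1, Serpinb6 and Serpinb9 are lower in the differentiated library of each pair, as are 32.0% of all tested genes. Replicate 1 is the highest in both groups for Serpinh1, Serpinb6, Serpinb9, Serpinb1a and Serpinf1.

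Of the 2 abundant members that are not protease inhibitors, Serpinh1 (29345), also called HSP47, is the collagen-specific chaperone of the ER. It had 135, 105 and 88.8 CPM in precursors 1, 2 and 5, and 103, 80.3 and 77.1 CPM in differentiated cells. The groups overlapped, since differentiated 1 was above precursor 5, but each pair was lower. That is a log2 fold change of -0.33 (SE 0.19, edgeR adjusted p = 0.341), and with the replicate block -0.33 (SE 0.07, adjusted p = 0.0144), which passed. On the TPM scale the ranges were apart, at 58.7 to 63.7 TPM in precursors and 39.0 to 42.2 TPM in differentiated cells, and limma on log2(TPM + 1) gave -0.57 (adjusted p = 0.041). Of 9 tested markers of fibroblasts and pericytes, cells rich in collagen, edgeR without the block called 1 lower and 1 higher. Their sum was lower in each of the 3 pairs. With the block 7 were lower and 1 higher (15.7% and 14.9% of all genes). Without both replicate 1 libraries 3 were lower and 1 higher (8.11% and 8.48% of all genes). The part of these markers in the Serpinh1, Serpinb6 and Serpinb9 values was not tested.

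Serpinf1 (287526), pigment epithelium-derived factor, is a secreted neurotrophic and antiangiogenic protein without inhibitory activity. It was at 22.6, 11.1 and 12.7 CPM in precursors and 23.9, 8.51 and 10.1 CPM in differentiated cells. Replicate 1 was about level between the groups and above all other libraries, while replicates 2 and 5 were lower after differentiation. Its log2 fold change was -0.12 (SE 0.45, edgeR adjusted p = 0.907, 0.285 with the block). It turned positive without precursor 1 (0.26), differentiated 2 (0.14) or differentiated 5 (0.071). Serpinf2 (287527), the gene of alpha 2-antiplasmin and the neighbour of Serpinf1 on chromosome 10, had 7, 14 and 11 reads in precursors and 0, 55 and 16 reads in differentiated cells. It did not pass (edgeR adjusted p = 0.641). In 115 genes of the table, 1 library had 0 reads while the other 5 had at least 20 each. Serpinf2, with fewer reads, is not among them, and the cause of its 0 in differentiated 1 was not tested.

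The clade B genes lie in a pair of clusters in GRCr8, with 10 members on chromosome 13 and 7 on chromosome 17. Each cluster had 3 tested members. On chromosome 17 these were Serpinb6, Serpinb9 and Serpinb1a, the abundant ones, and on chromosome 13 the scarce Serpinb7, Serpinb2 and Serpinb8. All 3 tested members of the chromosome 13 cluster were lower in every differentiated library than in any precursor library, and 0 of the 3 on chromosome 17 were. The share over all tested genes was 13.8%, and the chromosome 13 members had only 89 to 216 reads in all 6 libraries together. Serpinb7 and Serpinb2 passed the low-count filter only through the precursor libraries, so lower without overlap was nearly fixed in advance for them. The difference between clusters was not tested, and these counts cannot show one. Relatives of the same clade lie beside the chromosome 17 genes. Their sequences were not compared here, so the division of reads among them is uncertain. Of these relatives, Serpinb6b, Serpinb6e, Serpinb9d and Serpinb1b had 0 reads throughout.

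Serpinb6 (291085, Serpinb6a in GRCr8) inhibits cathepsin G and trypsin-like proteases. It had 34.3, 21.0 and 19.4 CPM in precursors 1, 2 and 5 and 21.1, 15.4 and 13.1 CPM in differentiated cells. Only differentiated 1 reached the precursor range, and each pair was lower. A log2 fold change of -0.59 (SE 0.27, edgeR adjusted p = 0.254) did not pass, whereas with the replicate block it was -0.57 (SE 0.10, adjusted p = 0.00655) and passed. It was called by limma on log2(TPM + 1) as well (-0.81, adjusted p = 0.0368).

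Serpinb9 (361241) inhibits granzyme B and protects cells against their own or foreign cytotoxic granules. Its values were 34.5, 14.9 and 18.0 CPM in precursors and 16.4, 11.05 and 11.2 CPM in differentiated cells. Differentiated 1 overlapped the precursor range, and precursor 1 was 2.1 times the mean of the other precursors. Its log2 fold change was -0.80 (SE 0.34, edgeR adjusted p = 0.213), against -0.73 (SE 0.14, adjusted p = 0.0107) with the replicate block, which passed. Without both replicate 1 libraries it was -0.56 (adjusted p = 0.0651).

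Serpinb1a (291091), which inhibits neutrophil elastase and related granule proteases of myeloid cells, differed in sign between replicate 1 and the other pairs. It was at 25.7, 12.7 and 12.2 CPM in precursors and at 34.8, 7.97 and 8.70 CPM in differentiated cells. The pair of replicate 1 was higher after differentiation, and the pairs of replicates 2 and 5 lower. Over all libraries the log2 fold change was 0.03 (SE 0.61, edgeR adjusted p = 0.987), -0.23 with the replicate block (adjusted p = 0.49) and -0.57 without both replicate 1 libraries (adjusted p = 0.0543). No direction can be given. Differentiated 1 stood at 4.17 times the mean of differentiated 2 and 5, against 1.90 times for the summed microglia markers and 2.61 times for the fibroblast and pericyte markers. None of the 10 microglia markers was at 0 in all libraries, and their part in the Serpinb1a, Serpinb6 and Serpinb9 values was not tested. With edgeR, 0 microglia markers were called, 1 was higher and 0 lower at an unadjusted p under 0.05, and DESeq2 called 0. With the block 1 was called higher and 3 lower.

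**Figure D3:**
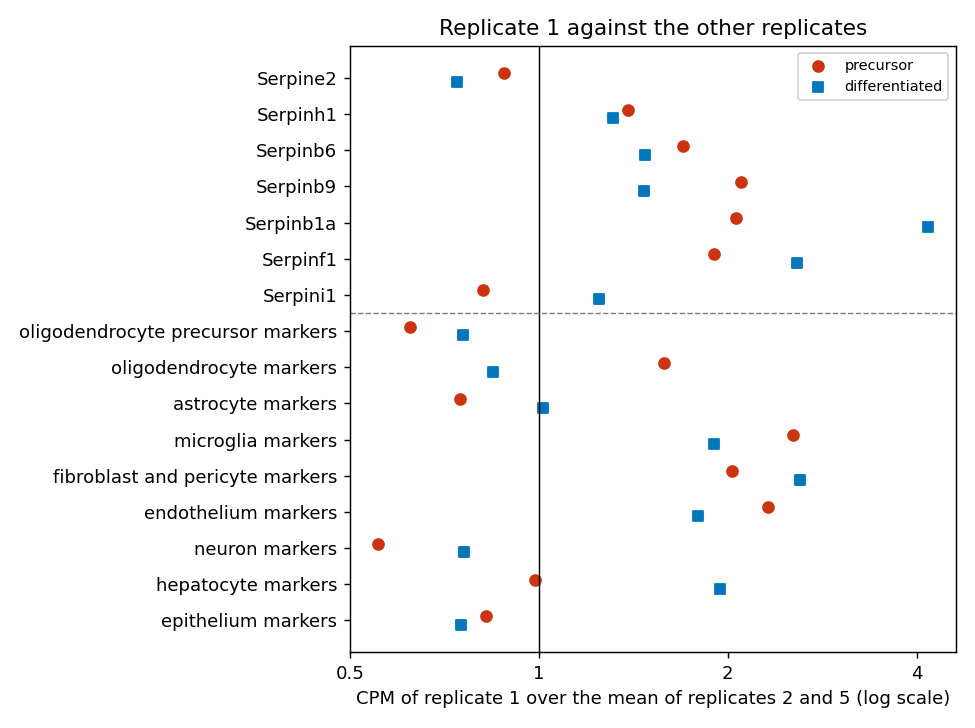
Each point is the CPM of replicate 1 divided by the mean CPM of replicates 2 and 5 of the same group (log axis), for the 7 members of the highest level (above the dashed line) and for summed cell type markers (below it). Serpinb1a reaches 2.06 in precursors and 4.17 in differentiated cells, microglia markers 2.54 and 1.90, while Serpine2 lies below 1 in both groups.

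Serpinb7 (117092), also called megsin, is a kallikrein inhibitor known from skin and kidney. It was the 1 member called in the edgeR fit of 3 against 3 libraries, at very low level. It had 48, 25 and 16 reads in precursors 1, 2 and 5 (0.753, 0.349 and 0.222 CPM) and 0 reads in each differentiated library. With 3 reads set over the whole differentiated group in place of 0, it was 27.4-fold lower there. That fold takes the 0s as measured and depends on the 3 reads chosen. On log2(TPM + 0.1) its log2 fold change was -1.69. The edgeR fit called it at an adjusted p of 0.0407 (0.0456 with the replicate block). Since Serpinb7 passed the low-count filter only through the precursor libraries, only a call in this direction was likely. The call was lost when any 1 of the 6 libraries was left out, with an adjusted p of 0.0634 (without differentiated 1) to 0.134 (without precursor 2), and without both replicate 1 libraries (0.0696). It was also lost with limma on log2(TPM + 1) (0.054). Over the fits without 1 library, 0.804% to 3.05% of all genes were called lower, against 3.21% with all 6. Epithelial markers (7 fixed, 6 in the table) were scarce. Krt5 and Krt14 were at 0 throughout, and the sum was 4.61 to 7.41 CPM in precursors and 2.30 to 3.31 CPM in differentiated cells. Their part was not tested.

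Serpinb2 (60325), an inhibitor of plasminogen activators, is known from activated macrophages. It had 94, 16 and 70 reads in precursors and 0, 8 and 0 reads in differentiated cells, where the highest library was still below the lowest precursor at 0.124 against 0.224 CPM. It did not pass (edgeR adjusted p = 0.123, 0.105 with the block), whereas DESeq2 called it (0.0141). Serpinb2 too passed the low-count filter only through the precursor libraries. Serpinb8 (288937), which inhibits trypsin-like proteases and furin, had 59, 37 and 65 reads in precursors and 18, 25 and 12 in differentiated cells. Its log2 fold change of -1.45 (SE 0.57) did not pass (edgeR adjusted p = 0.184, 0.183 with the block). Both were lower in 3 of 3 pairs, as were 32.0% of all tested genes. The members between them and beside them in the cluster, Serpinb10, Serpinb3, Serpinb3a, Serpinb5, Serpinb12 and Serpinb13, had 0 reads, and Serpinb11 had 15 reads in precursor 2 alone.

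**Figure D4:**
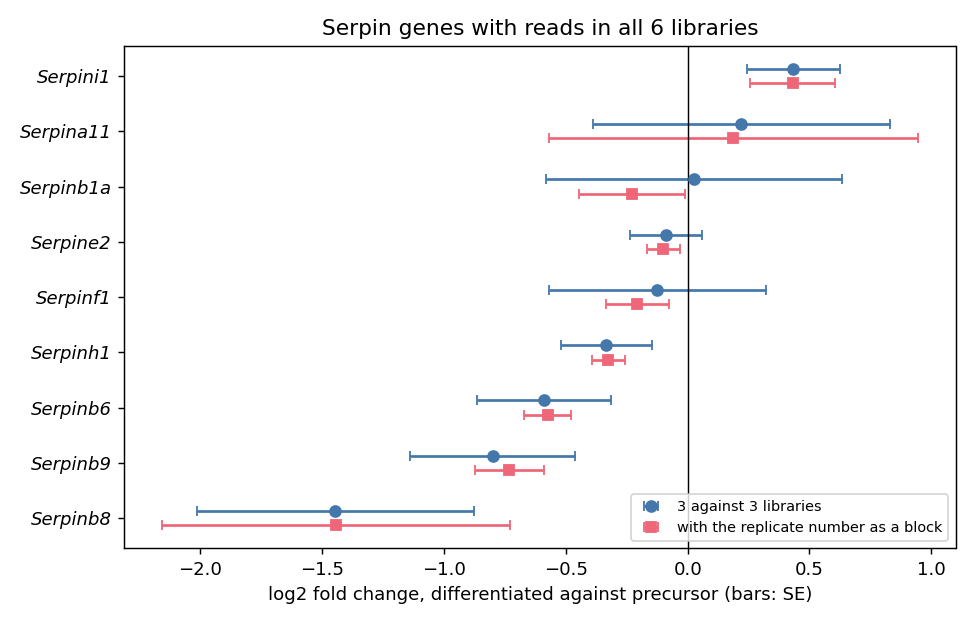
Log2 fold changes (x axis, bars are SE) of 9 tested members with reads in all 6 libraries, without the replicate block (circles) and with it (squares). Serpinb8, Serpinb9, Serpinb6 and Serpinh1 lie below 0 in both fits, and the block narrows the bars of each of these except Serpinb8.

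The members of clade A, the largest group of secreted serpins and mainly products of the liver, had very few reads. Serpina3n, left out by the rule, is not among them. Of 13 members, 7 had 0 reads in all libraries and 2 were tested, with a summed level of 0.18 to 0.697 TPM per library. Serpina11 (362774) had 20, 40 and 30 reads in precursors and 36, 19 and 39 in differentiated cells, which overlapped (log2 fold change 0.22, edgeR adjusted p = 0.878, -0.11 without differentiated 5). Serpina5 (65051), the protein C inhibitor, had 14, 13 and 0 reads in precursors and 25, 0 and 0 in differentiated cells, with no common direction (edgeR adjusted p = 0.973). Below the filter, Serpina1, the gene of alpha 1-antitrypsin, had 10, 19 and 0 reads in precursors, and Serpina10, inhibitor of coagulation factor X with protein Z, had 13, 6 and 8. Serpina6, which encodes the carrier of corticosteroids, had 5 reads in precursor 1. All 3 had 0 reads in each differentiated library. The antithrombin gene Serpinc1, the heparin cofactor gene Serpind1 and Serpini2 had 0 reads in every library, and Serpine3 and Serpina16 each had 2 in all.

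Genes that serpins work with were taken from lists on function. Of 33 target protease genes 16 were tested, and 0 were called without the block (1 higher and 0 lower at an unadjusted p under 0.05, and DESeq2 called 1 higher). With the block 2 were higher and 5 lower. Their median log2 fold change was -0.15. Plat (25692), tissue plasminogen activator, was at 125 ± 17.0 CPM (SD, n = 3) in precursors and 136 ± 13.5 CPM in differentiated cells. Plau (25619), urokinase, was at 164 ± 93.3 and 166 ± 92.4 CPM. Neither passed (edgeR adjusted p = 0.668 and 0.989), and the sign of both fold changes turned in some alternative fits. The thrombin gene F2 had 0 reads in all libraries.

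Receptors and cofactors of serpins, which clear inhibitor complexes or guide them to surfaces, moved in both directions. Of 26 tested, 3 rose, among them Vldlr and Sorl1, and 2 fell (5.65% and 3.21% of all genes), with a median log2 fold change of -0.17. With the block 7 rose and 6 fell (14.9% and 15.7% of all genes). Vldlr (25696), a lipoprotein receptor that takes up protease complexes, rose from 48.9 ± 1.72 to 122 ± 18.8 CPM, or by 1.32 on the log2 scale (SE 0.13, edgeR adjusted p = 0.00169), and kept its call when any single library was left out. Sorl1 (300652), a sorting receptor, rose from 5.11 to 21.2 CPM (adjusted p = 0.0155). Thbd (83580), thrombomodulin, which redirects thrombin, fell from 5.48 to 1.22 CPM (0.018), and S100a10 (81778), part of a plasminogen receptor, from 289 to 96.8 CPM (0.0119). The calls of S100a10, Thbd and Sorl1 were lost without differentiated 2 or differentiated 5, and those of Thbd and Sorl1 also without precursor 2. Calls over all genes also fell, from 1005 higher and 571 lower to 484 and 148 without differentiated 2. They were 500 and 170 without differentiated 5, 503 and 160 without precursor 2, and 636 and 263 without precursor 5. Lost calls in the lists below are to be read beside these counts.

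The main clearance receptor Lrp1 (299858) was at 225 ± 67.9 and 255 ± 73.0 CPM and passed only with the block (edgeR adjusted p = 0.742, and 0.0433 with the block, where it was higher). Plaur (50692), the urokinase receptor, was at 26.7 ± 14.4 and 20.1 ± 6.03 CPM. Pnpla2 (361676), a reported receptor of pigment epithelium-derived factor, was at 10.3 ± 0.188 and 9.17 ± 0.638 CPM. Neither of the latter passed (0.594 and 0.587).

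A list of genes for collagen folding and processing, called collagen folding partners below, moved in both directions. It also holds genes that do not fold collagen, such as Bmp1. Of 22 tested, 4 rose and 1 fell (5.65% and 3.21% of all genes), with a median log2 fold change of 0.23. With the block 8 rose and 2 fell (14.9% and 15.7% of all genes). P3h4 (59101), a partner of collagen hydroxylases, rose from 16.5 ± 1.41 to 32.1 ± 2.07 CPM, or by 0.96 on the log2 scale (SE 0.13, edgeR adjusted p = 0.00527), and kept its call when any single library was left out. P3h1 (114200), prolyl 3-hydroxylase, rose from 38.1 to 58.2 CPM (0.0197), Bmp1 (83470), the procollagen C-proteinase, from 111 to 170.3 CPM (0.0273), and Fkbp14 (362366), a prolyl isomerase, from 9.39 to 20.2 CPM (0.029). Plod2 (300901), a lysyl hydroxylase, fell from 26.3 to 16.1 CPM (0.0268). That call was lost without any 1 of the 6 libraries, and those of P3h1, Bmp1 and Fkbp14 without precursor 2, precursor 5, differentiated 2 or differentiated 5. Fkbp14 also lost its call without differentiated 1. On the TPM scale, where the whole table is lower, limma called Fkbp14 higher and lost P3h4 (adjusted p = 0.0925 at a pseudocount of 1), P3h1 (0.367) and Bmp1 (0.398). With library size alone P3h1 (0.0962) and Bmp1 (0.123) were lost.

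Of 16 ER folding genes, 1 rose and 0 fell (3 higher and 0 lower at an unadjusted p under 0.05, and DESeq2 called 0 lower), and with the block 6 rose and 2 fell (median 0.06). Hyou1 (192235), an ER chaperone, rose from 177 to 234 CPM (edgeR adjusted p = 0.0432), a call that was kept among the left-out libraries only without precursor 1, and that was lost on the TPM scale (0.639), with library size alone (0.156) and without the low-count filter (0.0612). Hspa5 (25617), the main ER chaperone, was at 612 ± 85.8 and 638 ± 78.4 CPM (0.855).

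Other protease inhibitor genes differed in both directions, with 3 of 22 called higher and 2 lower (5.65% and 3.21% of all genes). With the block 3 were higher and 12 lower (14.9% and 15.7% of all genes), and the median without it was -0.43. A2m (24153), which encodes the broad inhibitor alpha 2-macroglobulin, fell from 474 ± 26.5 to 249 ± 39.3 CPM, with a log2 fold change of -0.93 (SE 0.14, edgeR adjusted p = 0.00763). Itih3 (50693), a chain of inter-alpha inhibitors, fell from 8.34 to 3.81 CPM (0.0375). Agt (24179), the angiotensinogen gene and by structure a serpin without inhibitory activity, rose from 7.45 ± 3.10 to 26.5 ± 9.79 CPM, by 1.83 on the log2 scale (edgeR adjusted p = 0.0393, 0.000144 with the block). Pebp1 (29542), better known for binding Raf kinase, rose from 470.2 to 968 CPM (0.00552), and the proteoglycan gene Spock1 (306759) from 1.31 to 5.63 CPM (0.0222). The calls of Agt and Spock1 were lost without precursor 2, precursor 5, differentiated 2 or differentiated 5, and that of Itih3 was kept only without precursor 1. Those of A2m and Pebp1 held when any single library was left out. On the TPM scale limma kept A2m but called 0 genes of this list higher at either pseudocount, and with a pseudocount of 1 the adjusted p was 0.0719 for Pebp1, 0.0922 for Agt, 0.0655 for Spock1 and 0.0678 for Itih3. Agt was also lost with library size alone (0.0652).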

How the data were processed

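RNA was sequenced from 3 precursor and 3 differentiated libraries. The submitters' processing notes list StringTie 2.1.3b, HISAT2 2.1.0, Trimmomatic 0.38 and bcl2fastq 2.20.0. Those notes name the human build GRCh38, whereas the table holds rat genes. The kit marks strand, per the labels, but the sources used here give neither the rat annotation nor the strand setting of the counting, and overlapping and antisense genes cannot be told apart. The authors deposited whole-number read counts that are not normalized, FPKM values (not used here) and TPM values, as the column names and sums show.

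Here, counts were fitted with edgeR 4.0.16 in R 4.3.3 (TMM scaling, filterByExpr, robust quasi-likelihood F-test, Benjamini-Hochberg adjustment over 17797 genes, calls at adjusted p under 0.05). The SE is the log2 fold change divided by the square root of F. The script was tested on simulated data. Same-numbered libraries deviated together from their group means (r = 0.421, 0.197 and 0.272 across genes for numbers 1, 2 and 5, the highest other 0.105). The main fit did not pair them. The replicate block, an alternative fit, therefore treated them as pairs, although no label says so. Replicates differed beyond sampling noise. Alternatives were other scalings and filters, DESeq2 1.42.0, limma 3.58.1 on TPM, the replicate block and left-out libraries.

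Tested members were named, and in each partner list the called genes (at most 5 in each direction) with Plat, Plau, Lrp1, Plaur, Pnpla2 and Hspa5. Genes with at least 5 reads in a library below the filter were also named. Some genes that enter the counts are not reported here. The members and lists were chosen with earlier results of these data known. Promoters were matched by gene identifier, and all 40 members matched the GRCr8 gene table. Marker lists had these results: of 7 precursor markers 0 were called, of 7 oligodendrocyte markers 7 rose, of 9 astrocyte markers 4 rose, of 9 fibroblast and pericyte markers 1 rose (Pdgfrb) and 1 fell (Fbln1) without the block and 7 fell with it, of 7 endothelial, 2 hepatocyte and 2 epithelial markers 0 were called, and of 8 neuron markers 1 fell. At an unadjusted p under 0.05, edgeR had 2 precursor markers higher, 1 hepatocyte and 2 epithelial markers lower, and 0 endothelial markers, and DESeq2 called 2, 1, 1 and 0 of them.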

Additional observations from a re-analysis of the deposited data

How the results depend on the processing

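The count of Serpin members called lower was 1 with TMM, with DESeq2 size factors, with library size alone, without the low-count filter and with at least 10 reads in 3 libraries. It was 3 with DESeq2, 2 by limma on log2(TPM + 1), 4 on log2(TPM + 0.1) and 5 with the replicate block, where 6.11%, 5.62%, 6.12% and 15.7% of all genes were called lower (3.21% with TMM). It was 0 to 0 over the fits that left out libraries. There 0.804% (without differentiated 2) to 8.11% (without both replicate 1 libraries) of all genes were called lower. In these fits 1 to 7 members were lower at an unadjusted p under 0.05. The share of all genes under that level was not taken in these fits, so such unadjusted counts have no background. The count of members called higher was 0 in each of the 15 alternatives, with at most 1 higher at an unadjusted p under 0.05. The replicate block changed the calls of 4 members, among them Serpinh1, Serpinb6 and Serpinb9. Direction depended on the fit for members that were not called. The log2 fold change of Serpinb1a was -0.0018 with DESeq2 size factors, -0.14 with library size alone, -0.00089 with DESeq2, -0.44 on log2(TPM + 1), -0.49 on log2(TPM + 0.1) and -0.23 with the block, and -1.004 to 0.47 with libraries left out. With libraries left out it was -0.19 to 0.052 for Serpine2, -0.72 to 0.26 for Serpinf1, -0.11 to 0.49 for Serpina11, -0.089 to 1.90 for Serpinf2 and -6.14 to 0.40 for Serpina5. That of Serpina11 was -0.018 on log2(TPM + 1) and -0.068 on log2(TPM + 0.1). The causes were not tested. Of the partner lists, over the fits with libraries left out, target proteases had 0 to 3 genes called higher and 0 to 3 lower, receptors and cofactors 1 to 5 and 0 to 4, collagen folding partners 1 to 6 and 0 to 1, ER folding genes 0 to 2 and 0 to 0, and other inhibitors 1 to 3 and 1 to 5. With the block these counts were 2 and 5, 7 and 6, 8 and 2, 6 and 2, and 3 and 12. In that fit 14.9% of all genes were called higher and 15.7% lower. With library size alone 2 collagen folding partners and 0 ER folding genes were higher, without the filter 0 ER folding genes, and on either TPM scale 1 collagen folding partner higher, 0 ER folding genes higher and 1 lower, and 0 other inhibitors higher. DESeq2 called 1 target protease higher. The share of higher genes among all calls was 61.8% with DESeq2 size factors, 40.3% with library size alone and 32.8% on log2(TPM + 1). With fewer than 100 reads in any library, values of Serpinb7, Serpinb2, Serpinb8, Serpinf2 and of clade A rest on few counts.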
